A study of Mus musculus with 9 samples.

Results

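Gene deserts are long stretches of the genome without protein-coding genes, and the regions described here are the places in them that carried H3K27ac in both genotypes. WT and dKO islands with 1 bp or more in common were joined, which gave 76633 merged regions. A region was counted as a gene desert region when it lay on chromosomes 1 to 19, held at least 1 island of each list, was more than 100 kb from the annotated transcription start sites (TSS) of all protein-coding genes, and lay outside every protein-coding gene body. Of 44698 autosomal regions with islands in both lists, 3359 met these conditions. The presence of the mark in both genotypes is therefore part of how the regions were chosen and is not a result.

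Naive CD8+ T cells (GFP+ TCRbeta+ CD62Lhi CD44lo-med CD8+) were sorted from spleens of mice aged 6 to 12 weeks. Both genotypes carried the hCD2-Cre transgene, which acts mostly in mature T cells, and a Rosa26 GFP allele that marks cells in which Cre has acted. WT mice had intact Tcf7 and Lef1 genes, and dKO mice (Tcf1-/-Lef1-/-) had both genes floxed, so that GFP+ dKO cells lacked the transcription factors Tcf1 and Lef1. Excision by this Cre ranged from 80% to 95%, and GFP+ cells were sorted. H3K27ac ChIP-seq was done on 4 WT and 3 dKO samples with 1 input sample per genotype, and the deposited values are 1 list of enriched islands per genotype, called on pooled replicates, with the read count of each island. With 1 list per genotype no difference below has a replicate check, no p-value was computed, and the intervals given describe counting error alone.

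The WT list summed to 82668007 island counts and the dKO list to 57665047. Promoter islands were present in both lists for 11 of 11 marker genes of naive CD8+ T cells. Other lineages were marked at some promoters as well. Islands covered 3 of 5 B cell promoters in WT and 4 of 5 in dKO (Pax5 in dKO alone, Ebf1 in neither), 5 of 5 myeloid, 2 of 2 CD4 lineage, 2 of 3 NK and 2 of 4 erythroid promoters in both lists, with Hba-a1, Hbb-b1 and Ncr1 at no island. Their part in the results below was not tested. Islands lay over Tcf7 (63567 counts in WT and 49281 in dKO) and Lef1 (55814 and 29201) in both genotypes. These islands extend well beyond the deleted exons and do not check the deletion.

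H3K27ac is an acetylation of histone H3 found at active promoters and enhancers. Enhancers are DNA elements that bind transcription factors and raise the transcription of a gene that can lie far away, which they reach through chromatin loops. In lymphocytes some of the longest enhancer arrays lie in gene deserts beside genes of transcription factors, such as those downstream of Bcl11b, Gata3 and Myc. Tcf1 and Lef1 bind DNA through an HMG box at a motif that contains ATCAAAG.

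The sequences below tie the regions to DNA. The first set holds 7 of 16 accessible sites that the study linked to genes and that fell inside gene desert regions. They were chosen after a motif search as sites with a match, and 6 of the 16 had none. The study sorted them into 4 clusters. Sites of C1 were more accessible in dKO and those of C2 less, and both went with genes of higher expression in dKO. C3 sites were more and C4 sites less accessible, and both went with genes of lower expression in dKO. Capitals mark matches, on either strand, to the letters ATCAAAG for TCF/LEF factors, TGTGGTT for RUNX factors, CCGGAAG for ETS factors, TGANTCA for AP-1, AGATAAG for zinc finger factors of the GATA family and CAGGTG for E-box factors, and neighbouring matches may overlap. All are given on the plus strand of mm9.
C4 site linked to Id2, central 300 of 432 bases, chr12:26643545-26643844: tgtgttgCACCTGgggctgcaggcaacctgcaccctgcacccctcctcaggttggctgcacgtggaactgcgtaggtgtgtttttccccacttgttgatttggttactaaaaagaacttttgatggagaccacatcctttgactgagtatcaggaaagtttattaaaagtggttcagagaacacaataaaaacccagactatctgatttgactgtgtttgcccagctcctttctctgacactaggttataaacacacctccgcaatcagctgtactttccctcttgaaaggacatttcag
C4 site linked to Prickle1, chr15:93543064-93543360: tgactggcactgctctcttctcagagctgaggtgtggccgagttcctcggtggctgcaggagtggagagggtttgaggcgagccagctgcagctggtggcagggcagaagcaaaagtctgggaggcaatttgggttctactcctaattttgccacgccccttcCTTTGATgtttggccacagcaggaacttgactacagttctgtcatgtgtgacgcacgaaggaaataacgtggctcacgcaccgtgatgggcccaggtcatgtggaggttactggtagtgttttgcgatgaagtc
C4 site linked to Amigo2, chr15:97299646-97299816: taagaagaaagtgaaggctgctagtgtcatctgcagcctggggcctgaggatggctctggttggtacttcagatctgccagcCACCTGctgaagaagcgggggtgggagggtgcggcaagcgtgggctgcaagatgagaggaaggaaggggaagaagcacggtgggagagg
C1 site linked to Kctd12, chr14:103227769-103227933: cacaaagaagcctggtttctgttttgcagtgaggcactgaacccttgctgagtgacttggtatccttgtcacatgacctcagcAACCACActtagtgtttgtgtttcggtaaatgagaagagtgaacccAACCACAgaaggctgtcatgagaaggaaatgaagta
C1 site linked to Atp2b1, chr10:98191395-98191530: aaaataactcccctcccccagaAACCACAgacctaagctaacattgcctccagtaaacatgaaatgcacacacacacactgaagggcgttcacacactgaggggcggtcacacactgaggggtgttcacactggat
C2 site linked to Fut8, chr12:78909554-78909668: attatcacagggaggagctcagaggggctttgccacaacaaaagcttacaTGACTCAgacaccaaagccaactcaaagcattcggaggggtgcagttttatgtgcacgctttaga
C3 site linked to Rasgrp1, chr2:117272744-117272943: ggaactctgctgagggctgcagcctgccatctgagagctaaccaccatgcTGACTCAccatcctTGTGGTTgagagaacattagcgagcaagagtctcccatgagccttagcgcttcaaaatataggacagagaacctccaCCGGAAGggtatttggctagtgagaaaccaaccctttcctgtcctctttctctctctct
The Id2 and Amigo2 sites each held 1 E-box match, and the Prickle1 site held 1 TCF/LEF match. The Kctd12 site held 2 RUNX matches and the Atp2b1 site held 1. The Fut8 site held 1 AP-1 match, and the Rasgrp1 site held 1 match each to AP-1, RUNX and ETS.

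The second set comes from 4 of the regions described below, each a window of 300 bases chosen as the stretch with most kinds of match.
Region 207774 bp from Ets1, chr9:32747859-32748158: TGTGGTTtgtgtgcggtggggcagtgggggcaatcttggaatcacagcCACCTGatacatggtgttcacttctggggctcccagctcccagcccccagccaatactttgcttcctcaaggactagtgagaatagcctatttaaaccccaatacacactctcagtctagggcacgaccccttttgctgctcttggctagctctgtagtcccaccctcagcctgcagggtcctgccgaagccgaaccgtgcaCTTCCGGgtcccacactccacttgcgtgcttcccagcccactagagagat
Region 311986 bp from Satb1, chr17:52310406-52310705: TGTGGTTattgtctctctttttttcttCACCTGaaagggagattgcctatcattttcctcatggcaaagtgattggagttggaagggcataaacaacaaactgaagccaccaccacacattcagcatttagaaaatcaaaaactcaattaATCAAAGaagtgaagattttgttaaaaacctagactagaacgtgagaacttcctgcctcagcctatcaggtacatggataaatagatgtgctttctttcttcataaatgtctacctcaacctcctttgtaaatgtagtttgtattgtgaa
Region 166525 bp from Nrp2, chr1:62930857-62931156: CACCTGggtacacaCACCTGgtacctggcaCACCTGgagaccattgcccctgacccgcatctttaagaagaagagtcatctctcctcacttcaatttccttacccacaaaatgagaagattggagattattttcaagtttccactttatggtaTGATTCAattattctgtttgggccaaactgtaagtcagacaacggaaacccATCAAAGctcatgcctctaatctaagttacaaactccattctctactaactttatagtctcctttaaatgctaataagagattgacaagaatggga
Region over Trdd2 and Trdj1, chr14:54745188-54745487: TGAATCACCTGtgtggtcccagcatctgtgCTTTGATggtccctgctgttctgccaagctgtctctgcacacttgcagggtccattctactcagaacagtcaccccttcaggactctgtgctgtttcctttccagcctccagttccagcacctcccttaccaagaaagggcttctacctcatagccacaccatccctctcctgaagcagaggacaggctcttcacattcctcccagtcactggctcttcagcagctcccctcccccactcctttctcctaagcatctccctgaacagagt
A match is a description of letters and not evidence of binding.

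Gene deserts, defined as unbroken stretches that satisfy the distance and gene body conditions, numbered 1747. They covered 782.6 Mb, or 31.7% of the autosomes. Regions with islands in both lists were sparse there, at 4.29 per Mb against 24.5 per Mb elsewhere. WT islands of these regions covered 2.80% of desert sequence and 20.4% of the rest. Gene desert regions held 4.51% of all WT island counts and 4.36% of all dKO island counts.

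In width and depth the gene desert regions were close to other distal regions and well below promoters. The median region had 532 counts over 3800 bp in WT and 349 counts over 3600 bp in dKO. Depth, given as counts per covered kb without scaling, had a median of 141 in WT and 101 in dKO. Regions in gene bodies had medians of 135 and 96.9, intergenic regions up to 100 kb from a TSS had 139 and 99.3, and promoter regions (within 1 kb of a TSS) had 255 and 156. Promoter regions were also wider, at a median of 6800 bp in WT. The largest gene desert depth was 791 counts per kb in WT.

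**Figure D1:**
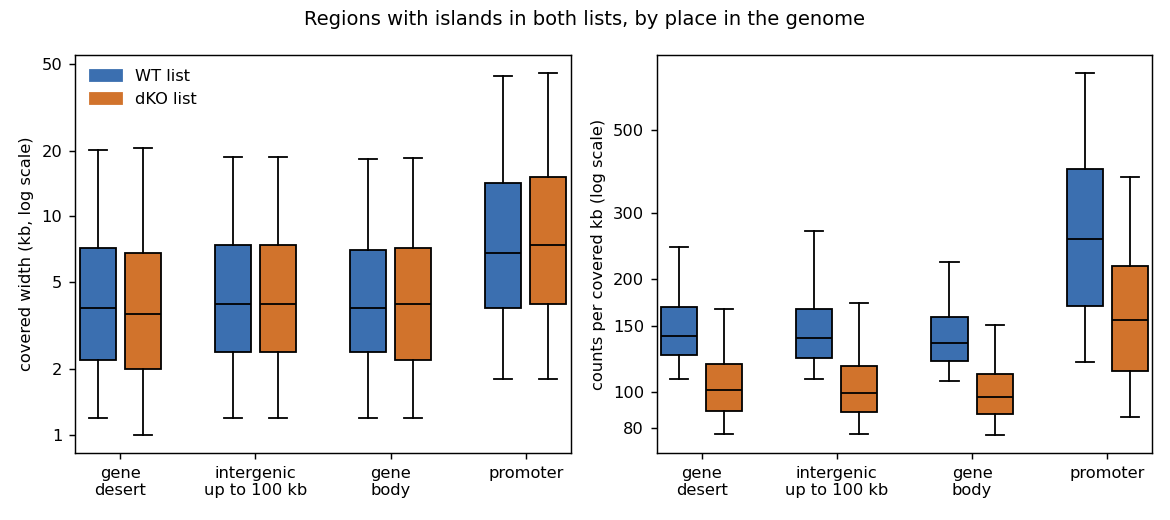
Covered width in kb (left) and counts per covered kb (right), both on log axes, of autosomal regions with islands in both lists, by place in the genome; boxes show quartiles and median, whiskers the 5th and 95th percentiles, blue the WT list and orange the dKO list. Gene desert regions had a median WT depth of 141 counts per kb, against 255 at promoters.

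To ask whether the mark differed between genotypes, the dKO to WT ratio of counts was taken as log2, after dividing the counts by the total island counts of the list. The median log2 count ratio of gene desert regions was -0.05 with an SD over regions of 0.69, and that of the other 41339 regions was -0.07. The sign of this median depends on the scaling, since it was 0.02 when counts were scaled to regions of both lists and also 0.02 when the median of all regions was set to 0. The first scaling adds 0.07 to every log2 count ratio given below, so that values between -0.07 and 0 become positive under it, and centring adds 0.02 to ratios per kb. Fewer cells carrying the mark and less mark per cell cannot be told apart in such data. Regions whose ratio reached 1.5 in either direction were called higher in that genotype. By counts, 400 gene desert regions (11.9%) were higher in dKO, against 11.2% of all autosomal regions of both lists, and 601 (17.9%) were higher in WT, against 14.2%. The share higher in dKO was thus near the background.

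Much of the count ratio followed the width of the islands. Of the 3359 regions, 1270 were wider in dKO, 1718 were narrower and 371 had the same width. The median log2 count ratio was 0.36 in the wider, -0.39 in the narrower and 0.02 in the same-width regions. Across regions, Spearman's rho between the log2 ratios of counts and of width was 0.894, where both share the same islands and regions are not replicates. In counts per covered kb the spread was smaller, with an SD of 0.26 around a median of 0.02. By this measure 64 regions (1.91%) were higher in dKO, against 1.17% of all autosomal regions of both lists, and 59 (1.76%) were higher in WT, against 4.42%. Scaling to regions of both lists turned these 64 and 59 into 108 (3.22%) and 38 (1.13%), against 1.80% and 3.23% of all autosomal regions under that scaling. The background for WT came mainly from promoters, of which 11.0% were higher in WT per kb, against 1.36% in gene bodies and 2.07% of intergenic regions up to 100 kb.

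**Figure D2:**
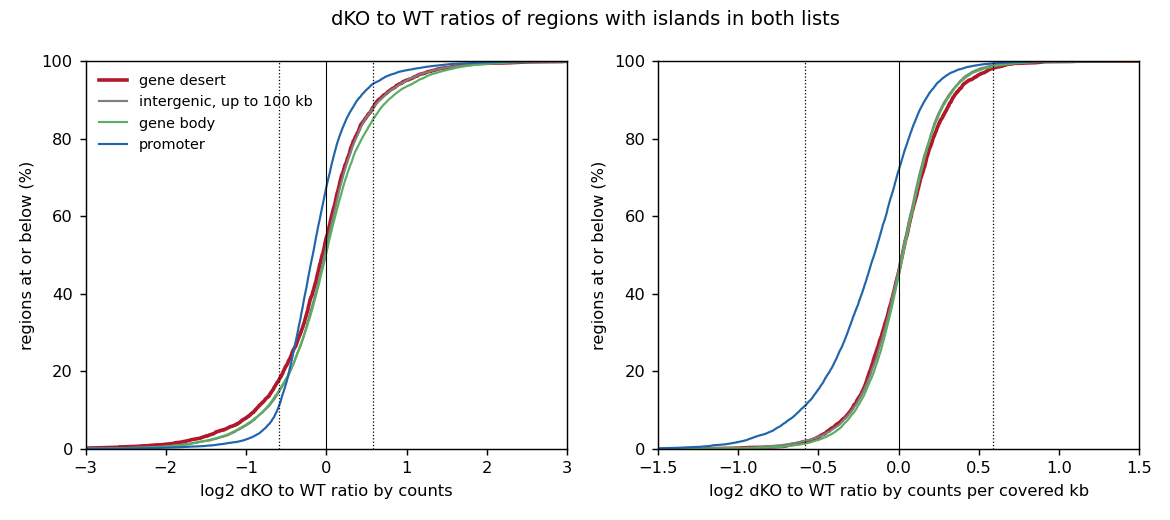
Cumulative share of regions (%) at or below each log2 dKO to WT ratio by counts (left) and by counts per covered kb (right), with dotted lines at a ratio of 1.5 either way. Gene desert regions (red) ran close to gene bodies and other intergenic regions and had a longer lower tail by counts, with 17.9% at or beyond the left line; promoters (blue) lay to the left, with a median of -0.15 by counts per kb against 0.02.

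Both calls together held for 21 regions in dKO (0.625%) and 38 in WT (1.13%), against 0.197% and 1.05% of all autosomal regions of both lists. The called share by counts per kb rose with depth. Among the 840 gene desert regions of greatest depth, 3.81% were higher in dKO and 4.17% higher in WT. Other regions above the same lower limit of depth gave 1.26% and 11.3%. The intergenic regions up to 100 kb from a TSS among them gave 2.04% and 6.49%. This range has no upper limit, so depth was not matched within it. Only called islands are in the lists, which sets a floor on depth. Among gene desert regions the lowest depths were 85 counts per kb in WT and 58.6 in dKO. Regions near this floor have little room for a lower value in either list. In the 840 of least depth, 0.476% were higher in dKO and 0% higher in WT. The part of this floor in the called shares per kb, here and by class above, was not tested.

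Most gene desert regions were simple. In 2384 of them (71.0%) there was 1 island in each list. A further 512 had 1 WT island facing several in dKO, 223 had several WT islands facing 1 in dKO, and 240 had several in both. The median log2 count ratio was -0.19 where 1 WT island faced several and 0.15 in the reverse case. Gene deserts also held 1031 regions in the WT list alone and 1696 in the dKO list alone. Of 6086 gene desert regions of any kind, 16.9% were in the WT list alone, against 8365 of 69456 other autosomal regions. For the dKO list alone the shares were 27.9% and 28.4%. Such single-list regions were weaker, with medians of 252 counts in WT and 158 counts in dKO.

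Distance to the nearest TSS had a median of 184363 bp and reached 2128259 bp. Between 100 and 150 kb lay 1182 regions, with a median WT width of 4000 bp, and beyond 500 kb lay 244 regions, with a median width of 2600 bp. Depth did not follow distance. The median was 141 counts per kb in WT in each of these groups. The median log2 count ratio moved from -0.03 in the nearest group to -0.09 in the farthest. The 3 farthest regions were chr1:103797601-103800600 at 2128259 bp from Cntnap5b (1046 counts in WT and 316 in dKO), chr11:14042401-14043800 at 1494321 bp from Gm17624 (178 and 141) and chr12:94127801-94129600 at 1037230 bp from Gm9726 (411 and 311). The first had a log2 count ratio of -1.21 (counting interval -1.39 to -1.03), and the intervals of the others, -0.13 to 0.50 and -0.09 to 0.33, included 0.

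Regions next to the limit of 100 kb spanned a range of counts on either side of it. Just inside it lay regions 100011 bp from Gm10797 (384 counts in WT and 268 in dKO), 100044 bp from Gm9843 (769 and 504) and 100063 bp from Bcl6 (1512 and 1007). Just outside lay regions 99956 bp from Klf13 (5050 and 3120), 99993 bp from Gm1968 (884 and 753) and 99994 bp from Irg1 (507 and 323).

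The regions were unevenly spread. Of 1747 deserts, 429 (24.6%) held any, and the 43 deserts with most of them held 1558 (46.4%). The density ran from 1.51 per desert Mb on chromosome 11 to 7.89 on chromosome 12. Over the 191 deserts with at least 5 regions, the SD of the log2 count ratio was 0.67 over all their regions and 0.55 within deserts, a share of 33.9% of the variance between deserts. All regions lay above 0 in 11 of these deserts and below 0 in 17. Summed over a desert, 8 of the 191 were at least 1.5 times higher in dKO and 18 higher in WT by counts. By counts per kb 1 was higher in dKO and none in WT.

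Deserts are named here by the protein-coding genes at their ends, and values in parentheses after a pair of WT and dKO counts are log2 dKO to WT ratios by counts unless given per kb. The most regions, 81, lay between Gm7112 and Ighv1-73. This stretch is the immunoglobulin heavy chain locus, whose gene segments are not annotated as protein-coding, and it gave 36576 WT and 25153 dKO counts (-0.02, counting interval -0.04 to 0.00). Lrrc3b-Oxsm and A1bg-Myc held 64 each, Id2-Rnf144a 59, Satb1-Kcnh8 58 and Myc-Gsdmc 56. The desert with the most WT counts was Vrk1-3110018I06Rik, which is separated only by 3110018I06Rik from the desert beside Bcl11b, the gene of a zinc finger factor needed for T lineage commitment. Its 49 regions had 108719 counts in WT and 73000 in dKO (-0.06, -0.07 to -0.04). Eea1-Btg1, beside the antiproliferative gene Btg1, had 27 regions with 93415 and 60724 counts (-0.10). WT islands of its regions covered 81.1% of the desert. Sall3-Galr1 had 53 regions with 90007 and 61741 counts (-0.02), and Cd83-Jarid2, beside the activation marker Cd83 and a cofactor of Polycomb repression, had 55 regions with 62323 and 44744 counts (0.04). In these 4 deserts the log2 ratios of the sums thus lay between -0.10 and 0.04, and those of Vrk1-3110018I06Rik and Sall3-Galr1 turned positive under the scaling to regions of both lists. Within a desert the ends could differ. In Vrk1-3110018I06Rik the 31 regions nearer to 3110018I06Rik had 86081 and 54249 counts (-0.15, 8 above 0) and the 18 nearer to Vrk1 had 22638 and 18751 (0.25, 15 above 0). In Cd83-Jarid2 the 27 regions nearer to Cd83 gave 0.23 and the 28 nearer to Jarid2 -0.16.

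Id2-Rnf144a had the lowest ratio of the deserts named for most regions or most WT counts. Id2 encodes an inhibitor of E proteins, which are helix-loop-helix factors that bind E-boxes, and Rnf144a encodes a ubiquitin ligase. The 59 regions summed to 103265 counts in WT and 46096 in dKO, which is -0.64 on the log2 scale (counting interval -0.66 to -0.63) for counts and -0.21 for counts per kb. A further 57 regions of this desert were in the WT list alone and 1 in the dKO list alone. The difference was not even along the desert. The 26 regions nearer to Id2 had 43750 counts in WT and 27505 in dKO (-0.15, and 0.04 per kb), whereas the 33 regions nearer to Rnf144a had 59515 and 18591 (-1.16, and -0.45 per kb). In the 100 kb at the Id2 end all 5 regions were above 0, between 0.08 and 0.20. All regions between 400 and 1000 kb from that end, also 33 in number, were below 0. The lowest step, at 400 to 500 kb, fell from 4076 to 471 counts (-2.59). Of the 33 regions nearer to Rnf144a, 29 were called higher in WT by counts and 8 per covered kb. The lowest of all gene desert regions lay here, at chr12:26447001-26458200 and 641921 bp from the Rnf144a TSS. Its WT islands held 1811 counts in 11.2 kb and its dKO island 92 counts in 0.8 kb (-3.78), while its depth per covered kb differed little (0.03).

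Myc, which encodes a transcription factor driving growth, had gene deserts on both sides. In A1bg-Myc the 64 regions had 43360 counts in WT and 23488 in dKO (-0.36), with 19 called higher in WT and 1 in dKO. In Myc-Gsdmc the 56 regions had 44066 and 31210 (0.02), with 5 and 9. The flank toward A1bg was thus below 0 by counts and the other flank near 0. Per kb the values were -0.09 and 0.05. Satb1-Kcnh8, beside the gene of the chromatin organizer Satb1, had 80923 and 48472 counts (-0.22, -0.24 to -0.20), with 10 regions called higher in WT and 1 in dKO.

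**Figure D3:**
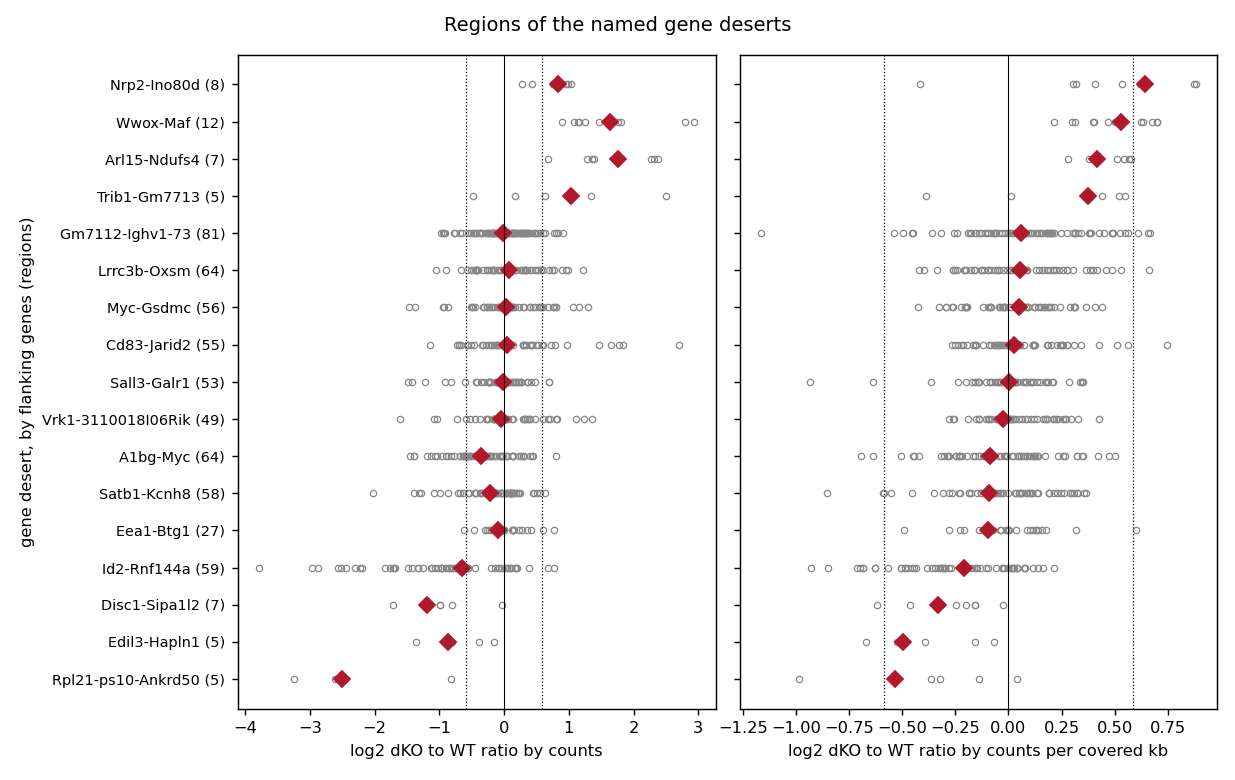
Log2 dKO to WT ratios by counts (left) and by counts per covered kb (right) for the named deserts, with the number of regions in brackets; circles are single regions, red diamonds the sums over a desert, and dotted lines a ratio of 1.5 either way. The sums ran from -2.50 in Rpl21-ps10-Ankrd50 to 1.75 in Arl15-Ndufs4 by counts.

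Among deserts with at least 5 regions, the highest by counts per kb were Nrp2-Ino80d, Wwox-Maf, Arl15-Ndufs4 and Trib1-Gm7713. Nrp2 encodes neuropilin 2, a receptor for semaphorins and VEGF, and Ino80d a subunit of the INO80 chromatin remodeller. The desert between them had 8 regions with 16798 counts in WT and 20845 in dKO (0.83, 0.80 to 0.86, and 0.64 per kb). All 8 were above 0 by counts and 7 per covered kb. The largest were chr1:62944001-62972000 (4049 and 4742 counts), chr1:62916801-62935600 (3999 and 5726) and chr1:62866801-62883800 (3040 and 4203), and in all 3 the unscaled dKO counts exceeded the WT counts although the dKO list has the lower total. This desert was the only one of the 191 past a ratio of 1.5 per kb.

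In Wwox-Maf, all 12 regions were nearest to Maf, the gene of the c-Maf transcription factor, at 163596 to 344196 bp. WT islands held 7862 counts in 62.8 kb and dKO islands 17052 counts in 135.2 kb (1.64, 1.60 to 1.68, and 0.53 per kb). Each of the 12 was called higher in dKO by counts, from 0.89 to 2.93, and 5 by counts per kb. The change was largest at the region nearest to Maf, chr8:118048001-118067400, where 453 counts in 3.6 kb of WT island stood beside 2411 counts in 19.4 kb of dKO island. The region with most counts, chr8:117995401-118026400, had 1629 and 3859 (1.76, and 0.68 per kb). The smallest change was at chr8:117971001-117979200, with 783 and 1014 counts (0.89, and 0.62 per kb). The desert held another 20 regions in the dKO list alone and none in the WT list alone. Both the Nrp2 and the Maf regions lie in super-enhancers that the study called prepotent in dKO from these same samples, so these lists are not independent evidence of their direction.

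Arl15-Ndufs4, beside a small GTPase gene and a gene of respiratory complex I, had 7 regions with 3882 counts in WT and 9129 in dKO (1.75, 0.42 per kb), all 7 called higher in dKO by counts and none per covered kb. In Trib1-Gm7713, the 3 regions nearer to the pseudokinase gene Trib1 had 5229 and 8297 counts (1.19), and the 2 nearer to Gm7713 had 1085 and 685 (-0.14).

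At the other end stood Rpl21-ps10-Ankrd50. Its 5 regions summed to 14362 counts (72.0 kb of island) in WT and 1770 counts (18.4 kb) in dKO (-2.50, -2.57 to -2.43, and -0.53 per kb), and 8 more regions were in the WT list alone. The largest, chr3:38166601-38192600, had 7339 counts in WT and 936 in dKO (-2.45, -0.98 per kb). Edil3-Hapln1, between genes of extracellular matrix proteins, had 4372 and 1679 counts in 5 regions (-0.86, -0.50 per kb). Disc1-Sipa1l2 had 16500 and 5026 counts in 7 regions (-1.20, -0.33 per kb). Every region of these 3 deserts lay below 0 by counts, the highest being a region of Disc1-Sipa1l2 at -0.03, which turned positive under the scaling to regions of both lists.

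Of the other deserts with every region on one side of 0 by counts, Prickle1-Adamts20 had the most regions. Prickle1 encodes a planar cell polarity protein. All 27 regions were below 0, from -2.08 to -0.04, with 24282 counts in WT and 10856 in dKO (-0.64, and -0.19 per kb). Another 34 regions of this desert were in the WT list alone and 1 in the dKO list alone. Klhl25-Agbl1 had 6 regions with 7621 and 1452 counts (-1.87, and -0.24 per kb) beside 18 in the WT list alone. Nek10-Lrrc3b had 6 regions with 7831 and 2541 counts (-1.10, and -0.15 per kb) beside 16.

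On the higher side, Sp4-Sp8, between genes of zinc finger factors, had 11 regions with 8509 and 8861 counts (0.58, and 0.36 per kb) and 19 more in the dKO list alone. Serp2-9030625A04Rik had 10 regions with 5733 and 9302 counts (1.22, and 0.19 per kb), all 10 called higher in dKO. Rpl34-Lef1, beside the deleted gene, had 9 regions with 25624 and 22450 counts (0.33, and 0.23 per kb), 4 of them called.

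**Figure D4:**
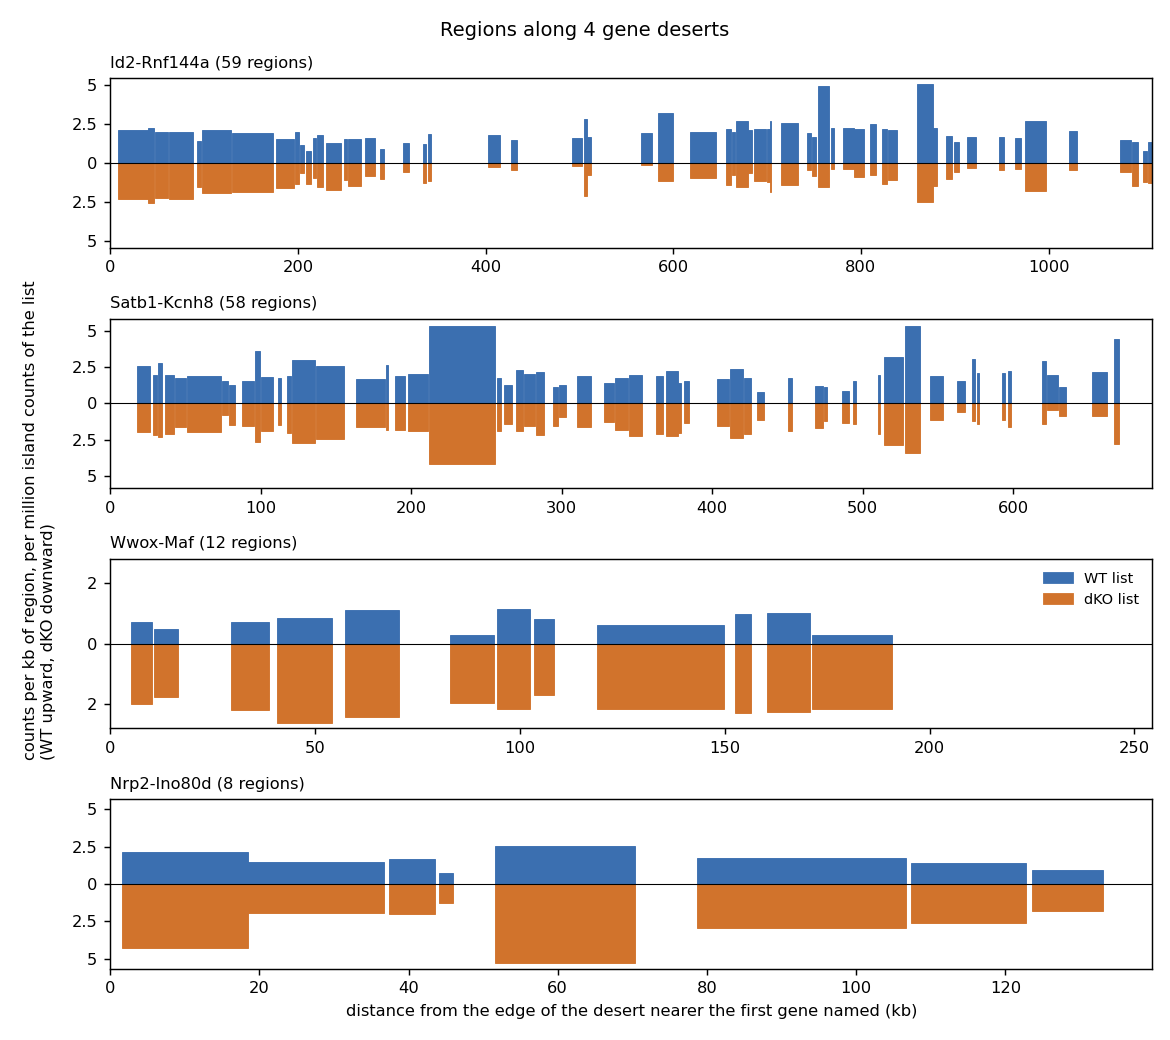
Regions along 4 gene deserts, as distance in kb from the end nearer the first gene named; bar height is counts per kb of region after scaling by the total island counts of the list, WT (blue) upward and dKO (orange) downward, and bar width the extent of the region. In Id2-Rnf144a the bars of both lists are of like height in the first 100 kb, where all 5 regions lay between 0.08 and 0.20. Most dKO bars are shorter beyond 400 kb, where all 33 regions up to 1000 kb had negative log2 ratios. In Wwox-Maf every dKO bar is longer.

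Of the 5 regions with the most WT counts, the largest, chr9:61434001-61579200, had 145.2 kb of WT island at 176257 bp from Tle3, a Groucho corepressor that binds TCF/LEF proteins. It had 38499 counts in WT and 27286 in dKO (0.02, 0.00 to 0.05, 0.03 per kb). The second, chr9:32711401-32755200, lay 207774 bp from Ets1, an ETS factor of lymphocytes, and was the deepest of all gene desert regions at 791 counts per kb in WT. It had 34165 counts in WT and 16105 in dKO (-0.57, -0.59 to -0.54, -0.50 per kb), just short of the called ratio. Lower ratios were also found near Tgfbr2, the TGF-beta receptor gene (chr9:116219601-116300200, 31089 and 17686, -0.29), near Tnfaip3, an inhibitor of NF-kB signalling (chr10:18871001-18926000, 26371 and 15378, -0.26), and near Satb1 (chr17:52284601-52328400, 19176 and 10489, -0.35). None of the 5 overlapped an annotated gene.

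Among the 3352 regions whose counts over both lists came to 200 or more, the largest increase was at chr14:54740001-54749200, over the T cell receptor delta segments Trdd2 and Trdj1. WT had 346 counts in 3.2 kb of island and dKO 2224 counts in 9.2 kb (3.20, 3.04 to 3.37), and it led by counts per kb as well (1.68). The next were at chr16:93115001-93132400, 288690 bp from Runx1 (294 and 1692, 3.04), at chr2:48270401-48275800, in an intron of the noncoding gene Gm13481 and 393829 bp from Acvr2a (100 and 564, 3.02), and at chr14:77213401-77226200, 209688 bp from 9030625A04Rik (220 and 1171, 2.93). Per kb these 3 gave 0.41, -0.74 and 0.10, so that the Acvr2a region was lower in dKO by that measure. It had 0.4 kb of island in WT and 5.4 kb in dKO. After the region at Id2-Rnf144a, the largest decreases were near Zfp703 (chr8:27729401-27741000, 1936 and 138, -3.29), near Rpl21-ps10 (chr3:38121801-38135400, 1734 and 128, -3.24) and near 4930533L02Rik (chr7:132320401-132331800, 1798 and 145, -3.11). Per kb these 3 gave -0.02, 0.04 and 0.14, with narrower islands in dKO. Reads outside called islands are not in the lists. A loss of width and a loss of depth over the whole region therefore cannot be told apart there.

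By counts per kb, among the 3215 regions that also had at least 1 kb of island in each list, the largest increases after the Trdd2 region were near Cst10 (chr2:149108001-149109600, 198 and 209 counts, 1.08) and in the Nrp2 desert (0.88 and 0.88). The largest decreases were at chr11:111661801-111663800, over an exon of the noncoding gene Gm11674 (774 and 141, -1.20), at chr2:117811601-117817000, in an intron of the lincRNA Gm13986 and 120612 bp from Thbs1 (1283 and 228, -1.12), at chr2:74904801-74913800, 197763 bp from Mtx2 (2696 counts in 9.0 kb and 794 in 7.6 kb), and at chr4:89212801-89220000, 126127 bp from Dmrta1 (2266 and 421, -0.99). All 4 were lower by counts too.

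The regions had 598 distinct nearest protein-coding genes, and a nearest gene need not be the gene an enhancer acts on. Of 34 genes of T cell transcription factors, 19 were nearest to at least 1 region, 378 regions in all (11.3%). Their median log2 ratio was -0.04 by counts and 0.07 by counts per kb, with 49 regions (13.0%) called higher in dKO and 52 (13.8%) in WT, beside 11.2% and 14.2% of all regions. Per kb 9 (2.38%) were called higher in dKO and 3 (0.794%) in WT, beside 1.17% and 4.42%. Summed per gene, 7 lay above 0 and 12 below by counts, of which Foxo1 (-0.03) and Sox4 (-0.01) turned positive under the scaling to regions of both lists. Per kb 14 genes lay above 0 and 5 below. Maf stood highest. Runx1, a RUNX factor of T cell development, had 20 regions with 18444 counts in WT and 18928 in dKO (0.56, 0.13 per kb), 9 of them called higher in dKO and none in WT. Foxp1, a regulator of T cell quiescence, had 10 regions (5918 and 5079, 0.30), and Gata3, a zinc finger factor of T cells, had 41 regions (45319 and 36412, 0.20 by both measures). The 4 regions nearest to Lef1 itself, outside the floxed gene, had 16591 and 13785 counts (0.25). Bcl11b had 3 regions (21655 and 16689, 0.14).

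Lowest by counts among the genes with at least 5 regions was Tox, an HMG box factor, with 40 regions (16841 and 8364, -0.49, -0.11 per kb). Of these, 14 were called higher in WT and 3 in dKO. Ets1 followed with 31 regions (58402 and 30747, -0.41, -0.25 per kb), of which 4 were called in WT and none in dKO. Myc had the most regions of any gene, 93 (67415 and 43714, -0.11, and 0.01 per kb). Satb1 had 44 (68023 and 42734, -0.15), Id2 26 (43750 and 27505, -0.15, and 0.04 per kb) and Sox4, an HMG box factor, 26 (37198 and 25806, -0.01, and 0.03 per kb). The 7 regions near Nr4a3 had 10752 and 7045 counts (-0.09, and 0.04 per kb). The 11 near Ikzf2, the Helios gene, had 5080 and 3578 (0.01, and 0.26 per kb, with all 11 above 0 per kb). The remaining genes of this list had fewer than 5 regions each. Among them, Zeb2 was the lowest of the list by counts with 1 region (687 and 196, -1.29, and 0.06 per kb). Eomes also had 1 region (4886 and 2566, -0.41, and -0.11 per kb).

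**Figure D5:**
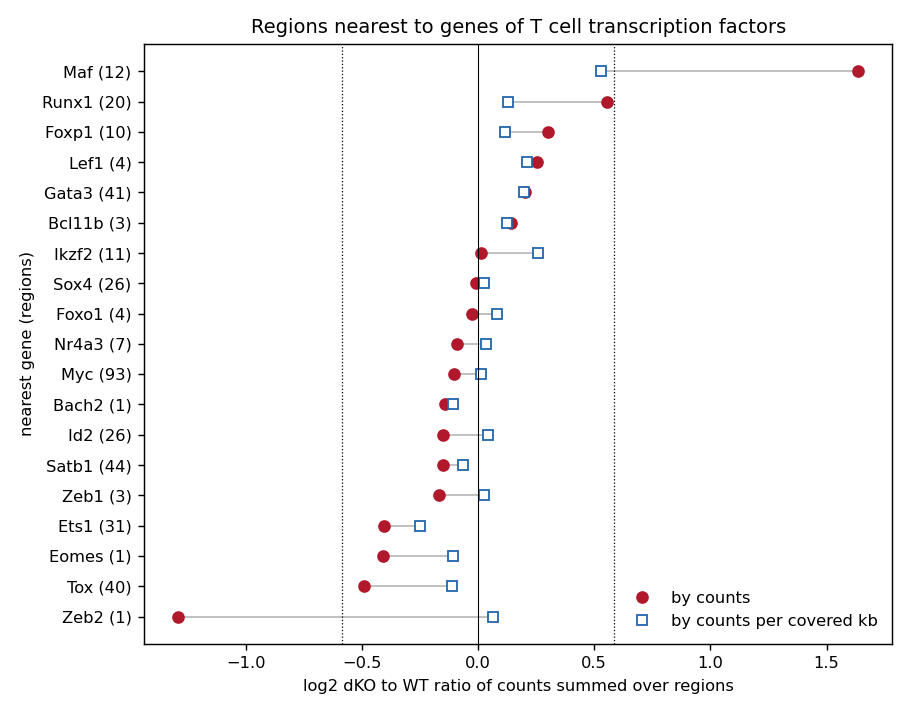
Log2 dKO to WT ratio of counts summed over the gene desert regions nearest to each gene of T cell transcription factors, with the number of regions in brackets; filled circles are counts, open squares counts per covered kb, and dotted lines a ratio of 1.5 either way. Maf stood highest at 1.64 by counts and 0.53 per kb, and the values of most genes drew closer to 0 per kb.

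Other lists had far fewer regions in gene deserts. Of 20 T cell surface genes 4 had regions, 26 in all. These were the chemokine receptor gene Cxcr4 (10 regions, 21414 and 14600 counts, -0.03, or 0.04 under the scaling to regions of both lists), the integrin gene Itga4 (9, 7901 and 4937, -0.16), the costimulatory receptor gene Icos (3, 3927 and 1147, -1.26) and the sphingosine phosphate receptor gene S1pr1 (4, 2581 and 1697, -0.09). All 3 Icos regions were called higher in WT by counts, and per kb their sum was -0.18. Of 8 B lineage genes 2 had regions, namely Bcl6 (10, 13282 and 10061, 0.12) and Ebf1 (1, 579 and 211, -0.94). Of 9 effector and NK genes 2 had regions, Ifng (9, 18503 and 11259, -0.20) and Fasl (4, 3852 and 2350, -0.19). No myeloid gene of 8 listed, of which 7 were in the annotation, had any.

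The study listed genes whose expression was higher or lower in dKO. Of 290 genes with higher expression that could be found in the annotation, 21 were nearest to gene desert regions, 178 regions in all. Their median log2 count ratio was 0.19, with 47 called higher in dKO (26.4%) and 13 in WT (7.30%), beside 11.2% and 14.2% in the background. Gata3 (41 regions), Cd83 (27, 30363 and 24801 counts, 0.23), the calcium pump gene Atp2b1 (25, 16689 and 13093, 0.17), Maf (12), Serp2 (6, 4666 and 6805, 1.06) and Nrp2 (5, 10197 and 12832, 0.85) were among them. Summed per gene, 12 of the 21 lay above 0 and 9 below by counts, the latter including Ifng (9 regions, -0.20), Nrp1 (2, -0.21) and Ank (3, -0.36, and 0.36 per kb). Of 240 genes with lower expression, 12 were nearest to 83 regions, with a median of -0.21, 8 called in dKO (9.64%) and 22 in WT (26.5%). The polarity gene Prickle1 had 19 of these (14709 and 6916, -0.57), all 19 below 0 and 7 called in WT. Amigo2 had 2 (27643 and 16239, -0.25). Ankrd55 went the other way, with 5 regions (3087 and 7483, 1.80), all called higher in dKO by counts. Summed per gene, 4 of the 12 genes with lower expression, among them the deleted gene Lef1 (0.25), lay above 0 and 8 below by counts. Per kb 9 of these 12 lay above 0 and 3 below, so most were not lower in dKO by that measure. Some of the 9 lay close to 0, as at Olig3 (0.02), Nr4a3 (0.04) and Id2 (0.04). Among all gene desert regions, 54.5% lay above 0 per kb. Of the 21 genes with higher expression, 16 lay above 0 per kb and 5 below. Per kb the medians of the 2 lists were 0.14 and -0.01. Of the 178 regions, 9 (5.06%) were called higher in dKO per kb and 2 (1.12%) in WT. Of the 83 regions, 0 (0%) were called higher in dKO per kb and 1 (1%) in WT. These shares per kb were 1.17% and 4.42% over all autosomal regions of both lists. Over all gene desert regions they were 1.91% and 1.76%. The gene lists come from other assays on these genotypes, and a handful of genes supplied most of the regions, so no more than the counts is read from them.

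Among the accessible sites the study linked to genes, 16 fell in gene desert regions. The 6 C4 sites lay in 6 regions, all below 0 by both measures, from -1.69 to -0.14 by counts. The Id2 site shown above lay in chr12:26634801-26647000, in the stretch nearer to Rnf144a, with 4955 counts in WT and 1070 in dKO (-1.69), and the Prickle1 site in chr15:93538801-93547400, with 1851 and 774 (-0.74). The Amigo2 site lay in a region of 15723 and 9108 counts (-0.27). The other C4 regions, another beside Id2 and a pair beside the noncoding gene Tmevpg1 near Ifng, lay between -0.21 and -0.14. The 6 C1 sites lay in 5 regions, of which 4 were above 0. The Kctd12 site was in a region of 2580 and 2504 counts (0.48), the Atp2b1 site in one of 912 and 852 (0.42) and a C1 site linked to Fut8, a fucosyltransferase gene, in one of 1421 and 1945 (0.97, 0.65 per kb). The Trib2 site was in a region of 2696 and 1602 counts (-0.23). The single C2 site, also linked to Fut8, was in a region of 293 and 451 counts (1.14, 0.08 per kb). The 3 C3 regions ranged from -0.06 to 0.47.

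Of the super-enhancers that the study called prepotent in dKO, 12 overlapped 112 gene desert regions, 92 of them above 0 by counts. Of these regions 38 (33.9%) were called higher in dKO and 3 (2.68%) in WT, beside 11.2% and 14.2% of all regions. Of those called prepotent in WT, 3 overlapped 7 regions, with 3 above 0 and none called. A WT-specific chromatin hub beside Syk overlapped 4 regions, all below 0 by counts (-0.40 to -0.12), with 2 above and 2 below 0 per kb. A further 2 hubs, specific to dKO, overlapped 1 region each, one at 0.94 and the other at -0.55 by counts and both above 0 per kb. Super-enhancers were chosen from these samples, so these counts are no independent evidence of direction.

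Antigen receptor loci held 112 of the 3359 regions, since their segments are not annotated as protein-coding. These loci rearrange in lymphocytes by joining of gene segments. The heavy chain locus held 94, with a median log2 count ratio of 0.06. They were narrow, at a median WT width of 2200 bp. The T cell receptor alpha and delta locus held 14 regions with 3882 counts in WT and 6798 in dKO. The Trdd2 region alone held 346 and 2224 of these counts. By counts 8 of the 14 were called higher in dKO and none in WT, beside 11.2% and 14.2% of all autosomal regions. Per kb 3 were called higher in dKO and none in WT, beside 1.17% and 4.42%. Beside the Trdd2 region, those called by counts included one over the V segment Gm16980 (452 and 969 counts, 1.62, and 0.15 per kb) and one over Gm17015 (352 and 718, 1.55, and 0.85 per kb). The beta locus held 4, all between 0.06 and 0.53. The kappa, lambda and gamma loci held none. Leaving these loci out, 385 of 3247 regions (11.9%) were called for dKO and 592 (18.2%) for WT by counts. The shares over all autosomal regions were 11.2% and 14.2%. Per kb 55 (1.69%) were called for dKO and 58 (1.79%) for WT, beside 1.17% and 4.42% of all autosomal regions. Of the 112 regions in these loci, 9 (8.04%) were called for dKO per kb and 1 (0.893%) for WT. Starts of noncoding genes or pseudogenes lay within 1 kb of 108 regions (3.22%). Their median WT width was 7800 bp, against 3800 bp for the 3198 regions with no annotated start of these or other types within 1 kb. Depth in these 108 regions had a WT median of 152 counts per kb, against 140. The largest, chr12:108350201-108404600 over Gm16084 and Gm16085 in Vrk1-3110018I06Rik, had 19161 counts in WT and 11989 in dKO (-0.16). The next, chr13:112765801-112830400 over Gm15322 and Gm15323, had 16551 and 12911 (0.16).

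In sequence, the central 1 kb of gene desert regions had a median GC content of 43.7% and 8 CpG, against 48.1% and 14 at promoters and 38.8% and 5 in desert windows of 1 kb outside islands. TCF/LEF letters were in 18.3% of gene desert regions, in 15.3% of all autosomal regions of both lists and in 22.3% of the desert windows. ETS letters, which contain a CpG, were in 3.84%, 5.78% and 1.61%. E-box letters were in 48.3%, 54.3% and 39.1%, and RUNX letters in 21.5%, 23.5% and 19.5%. AP-1 letters were in 28.7%, 26.3% and 27.2%, and GATA letters in 13.4%, 12.7% and 15.3%. The gene desert regions thus lay between all marked regions and unmarked desert sequence for TCF/LEF, ETS, E-box, RUNX and GATA letters, and these shares move with base composition. TCF/LEF letters were in 127 of 601 regions higher in WT by counts (21.1%) and in 54 of 400 higher in dKO (13.5%). The 616 regions with these letters had a median log2 count ratio of -0.10, with 8.77% called higher in dKO and 20.6% in WT. The 2743 without had -0.04, with 12.6% and 17.3%. By counts per kb the medians differed little, at 0.017 with and 0.025 without these letters. These are descriptions without a test.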

How the data were processed

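H3K27ac ChIP-seq was done on naive CD8+ T cells, with 4 WT and 3 dKO samples and 1 input per genotype. The authors aligned reads to mm9 with Bowtie2 2.2.5, kept those with mapping quality above 10, and ran SICER 1.1 on the combined samples of each genotype with its input (windows of 200 bp, gaps of 400 bp, FDR below 0.01). Duplicate removal is not given in the sources used here. The deposited values are read counts per island, with no normalisation, in 1 list per genotype (65563 WT and 82213 dKO islands). With this calling, whether a low island is listed and how wide it is can depend on depth.

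From these lists, islands were merged and classed by 78261 transcription start sites of 22380 protein-coding genes in the mm9 GENCODE annotation (vM1). Each ratio divided counts by the total of its list, and 95% intervals came from Wilson limits of the dKO share of counts, with a median half-width of 0.20 on the log2 scale. Regions within 1 kb of a start site were classed as promoters. Scripts used Python 3.11.15, numpy 2.4.6, pandas 2.3.3, matplotlib 3.10.9 and samtools 1.23.1 and were tested on simulated data. In a simulation of 3359 regions with 200 changed 2-fold, 99.5% of these and 0 unchanged regions were called, with counting error alone and no spread between samples. Island limits were the same in both simulated lists, whereas only 371 of the 3359 regions had the same width in the data. The simulation therefore does not give the rate of false calls in these data. Motifs were searched on both strands of the central 1 kb of each region and of 67698 desert windows taken every 10 kb.

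Regions were named by fixed rules, which took those with most WT counts, the largest ratios either way by each measure (at least 200 counts over both lists, and for ratios per kb at least 1 kb of island in each), those nearest to the 100 kb limit and those farthest from a TSS. Deserts were named by most regions, most WT counts and the extreme ratios per kb among those with at least 5 regions, 1 of which is not reported here. Deserts with every region on one side of 0, parts of deserts and receptor loci were added after their values were seen. The regions and gene lists were chosen with earlier results of these data known. Alternatives were other distance limits, gene types, merging, overlap, scaling and call ratios. Input samples have no values in the lists.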

Additional observations from a re-analysis of the deposited data

How the results depend on the processing

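Of 109 alternative values of the main counts, medians and shares, 83 stayed within the limits set for a change and 26 moved. With a limit of 50 kb from a TSS there were 5849 regions, 648 higher in dKO and 1013 higher in WT by counts and 110 higher in WT per kb. With 200 kb there were 1478 regions, 178 and 259 by counts, and 29 and 26 per kb. When genes of every annotated type defined a desert there were 1869 regions, 215 and 339 by counts, and 31 and 31 per kb. Joining islands within 1 kb left 33 and 31 per kb. Requiring islands of each list to cover at least 50% of a region lowered the share with islands in both lists to 47.7%, and left 242 and 327 by counts and 37 higher in dKO per kb. Calling ratios of at least 2 left 167 and 265 by counts and 5 and 5 per kb. The first 5 of these settings take in fewer or more regions by construction, and the last calls fewer. Scaling to regions of both lists gave 108 and 38 per kb, with the shares over all autosomal regions given above. Under the other settings no share over all autosomal regions was computed. The called counts of those settings therefore give no comparison with the background. The median log2 count ratio ranged from -0.07 to 0.02, and the median per kb from 0.01 to 0.09. Of the named regions with a count ratio past 1.5, 4 changed sign between counts and counts per kb, near Acvr2a (-0.74 per kb), Rnf144a (0.028), Rpl21-ps10 (0.040) and 4930533L02Rik (0.14). Their islands differed in width more than in depth or, near Acvr2a, in the opposite direction. No paired analysis was possible because the lists pool the replicates of a genotype, so no library could be left out either. Depth limits the weakest regions, and the dKO list, with 57665047 counts against 82668007, can miss islands that a deeper list would hold.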

Other observations

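Gene desert regions found in a single list lay in several of the deserts described above. Id2-Rnf144a held 57 in the WT list alone and Prickle1-Adamts20 34, each with 1 in the dKO list alone. Myc-Gsdmc held 43 in the dKO list alone and 10 in the WT list alone, although its shared regions summed to a log2 count ratio of 0.02, and Gm7112-Ighv1-73 held 39 and 15. Wwox-Maf held 20, Sp4-Sp8 19 and Nmbr-Cited2 15 in the dKO list alone, each with none in the WT list alone. The strongest single-list regions had 1776 counts in WT and 1961 in dKO. The dKO list is the shallower of the lists and still holds more islands, and the part of the calling in this was not tested.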
